A study of Rattus norvegicus with 4 samples.

Results

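The control steps of upper glycolysis were described across 10 genes: the hexokinases Hk1 and Hk2, the phosphofructokinases (PFK) Pfkl, Pfkm and Pfkp, the bifunctional PFKFB enzymes Pfkfb1, Pfkfb2, Pfkfb3 and Pfkfb4, and the muscle fructose bisphosphatase Fbp2. They were named by enzyme, and every array probe whose RefSeq transcript accession belongs to one of these genes was taken, which gave 15 probes of the 45565 with a usable value on every array. The 10 genes stand beside 16568 genes that could be named on the array. The cells were primary rat oligodendrocyte precursor cells (OPCs) from the cortices of Sprague-Dawley pups at postnatal day 2, grown for 3 days with bFGF and PDGF. At the switch to differentiating medium with T3 hormone they were transfected by Lipofectamine RNAiMAX with siRNA at 50 nM, either a pool that targets Gpr17 (siGPR17) or a non-targeting pool (siNEG), and RNA was taken 48 h later. Cortices were pooled before plating, and no genotype other than the siRNA differs between the groups. Each group has 2 samples, 1 per one-color array. The design calls them independent but does not say whether they came from separate preparations, so that p-values measure only the spread between these samples.

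Hexokinase traps glucose in the cell as glucose 6-phosphate, and phosphofructokinase commits the sugar to glycolysis by making fructose 1,6-bisphosphate. PFKFB enzymes make and break down fructose 2,6-bisphosphate, the strongest activator of phosphofructokinase, while fructose bisphosphatase runs the phosphofructokinase step backwards. Each enzyme exists in isoforms from separate genes that differ in tissue pattern and in control, and oligodendrocytes use glycolysis both for energy and to supply carbon for myelin lipids.

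Between 26997 and 28244 probes per array were well above background, and no spot of a gene probe was saturated. Signals below are intensities scaled to the 75th percentile of each array, which lay between 565 and 624 intensity units before scaling. A probe was tested with limma if 2 or more of the 4 arrays had it well above background, which held for 28016 probes and 11656 named genes. A gene was called with a fold change of 1.5 (0.585 on the log2 scale) and an adjusted p under 0.07. The brightest tested probe stood for a gene. The precision is limited by the number of arrays: 2 against 2 can be split in only 3 ways, so an exact two-sided permutation test cannot give a p under 0.333. All arrays came from 1 slide and 1 scan, and the groups occupied different slide columns, whose effect cannot be told apart from that of the siRNA. The targeted gene, Gpr17, gave signals of 1107 and 1113 on the siNEG and of 652 and 639 on the siGPR17 arrays, a log2 change of -0.78 (standard error 0.085, limma adjusted p = 0.209).

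The log2 changes of the hexokinases were unlike, and neither gene was called. Hk2, the inducible hexokinase of insulin-sensitive and growing cells, had signals of 128 and 164 on the siNEG arrays and of 204 and 209 on the siGPR17 arrays. Both siGPR17 values lay above both siNEG values, and the siNEG arrays differed from each other by 0.35 on the log2 scale. The log2 change of Hk2 was 0.51 (standard error 0.15, 95% interval 0.10 to 0.92), with an unadjusted p of 0.0248 and an adjusted p of 0.254 from limma, so that it was not called. Leaving out siNEG replicate 1 gave 0.33, and leaving out siNEG replicate 2 gave 0.69. Hk1, the housekeeping hexokinase of brain, had signals of 398 and 427 in siNEG and of 394 and 412 in siGPR17 OPCs, and the arrays of the groups overlapped. Its log2 change was -0.034 (standard error 0.094), and the 95% interval of -0.29 to 0.22 stayed within a fold of 1.5 in both directions. Its sign turned with scaling on the spike-in controls, to 0.095. Each hexokinase gene was measured by 1 probe.

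**Figure D1:**
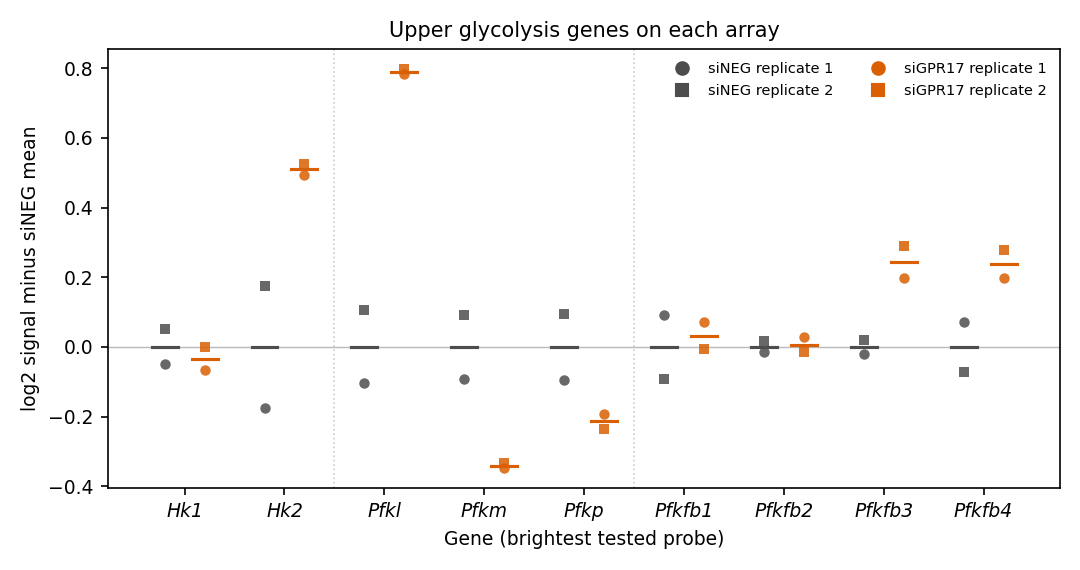
Signals of the brightest tested probe of each gene on the 4 arrays, as the log2 signal minus the siNEG mean (vertical axis), with 1 point per array and a bar at the mean of each group. The siGPR17 points of Pfkl, Hk2, Pfkfb3 and Pfkfb4 lie above all siNEG points. Those of Pfkm and Pfkp lie below them, and those of Hk1, Pfkfb1 and Pfkfb2 overlap with them.

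The 3 phosphofructokinase genes, which encode subunits that mix in the tetrameric enzyme, did not move one way. Pfkl, the liver isoform, had signals of 609 and 705 in siNEG and of 1127 and 1139 in siGPR17 OPCs, so that both siGPR17 arrays were far above the siNEG arrays. Its log2 change of 0.79 (standard error 0.11, 95% interval 0.49 to 1.09) was the largest among the 10 genes in size, and 2.06% of all tested genes changed at least as far in either direction. The adjusted p was 0.209 from limma, 0.0215 with normexp background correction and 0.0200 with the trend and robust options, and it ranged up to 0.665 over the alternatives. Pfkl was thus called under those 2 settings, where 0.961% and 1.58% of all tested genes were.

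Pfkm, the muscle isoform, had signals of 2571 and 2924 in siNEG and of 2155 and 2175 in siGPR17 OPCs. Its groups did not overlap, and its log2 change was -0.34 (standard error 0.11, 95% interval -0.63 to -0.051, limma unadjusted p of 0.0307 and adjusted p of 0.265). Pfkp, the platelet isoform, had signals of 11499 and 13106 in siNEG and of 10748 and 10432 in siGPR17 OPCs. Here too both siGPR17 arrays were below both siNEG arrays, although the log2 change of -0.21 (limma adjusted p = 0.392, standard error 0.11) had a 95% interval that included 0, from -0.51 to 0.081. With arrays scaled on the spike-in controls, which moved the median change of all tested genes from 0.0099 to 0.14, Pfkm was at -0.21 and Pfkp at -0.085. Without siNEG replicate 2, Pfkp was at -0.12.

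Because the PFK genes went apart, the 250 bases before the start of each in RefSeq (build GRCr8) are shown 5′ to 3′, together with those of Hk2. Capitals mark every match to ACGTG or GCGTG, the core letters bound by hypoxia-inducible factors, on the printed strand or its complement.

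Pfkl, chr20:10663715-10663964, plus strand: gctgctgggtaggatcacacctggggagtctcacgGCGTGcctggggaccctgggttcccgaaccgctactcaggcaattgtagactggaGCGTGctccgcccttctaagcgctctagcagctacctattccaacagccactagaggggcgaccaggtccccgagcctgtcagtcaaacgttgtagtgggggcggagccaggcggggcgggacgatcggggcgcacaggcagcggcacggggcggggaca
Pfkm, chr7:131113849-131114098, plus strand: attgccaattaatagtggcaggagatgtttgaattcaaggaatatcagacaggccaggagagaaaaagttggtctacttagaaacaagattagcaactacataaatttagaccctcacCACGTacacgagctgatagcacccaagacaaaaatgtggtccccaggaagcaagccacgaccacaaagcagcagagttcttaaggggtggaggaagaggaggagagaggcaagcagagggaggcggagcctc
Pfkp, chr17:68639563-68639812, plus strand: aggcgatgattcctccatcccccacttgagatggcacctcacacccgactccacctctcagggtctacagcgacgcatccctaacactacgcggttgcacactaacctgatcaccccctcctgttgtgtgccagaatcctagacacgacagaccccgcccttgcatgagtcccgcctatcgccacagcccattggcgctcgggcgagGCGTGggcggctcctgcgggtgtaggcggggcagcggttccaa
Hk2, chr4:116841276-116841525, minus strand: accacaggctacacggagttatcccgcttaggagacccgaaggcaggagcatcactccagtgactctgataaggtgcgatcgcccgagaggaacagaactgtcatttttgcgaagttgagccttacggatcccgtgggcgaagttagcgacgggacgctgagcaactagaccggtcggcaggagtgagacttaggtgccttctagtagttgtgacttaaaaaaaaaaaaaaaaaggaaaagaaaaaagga

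These letters occurred 2 times before Pfkl, 1 time each before Pfkm and Pfkp, and not before Hk2. Some of these genes were higher and some lower in siGPR17 OPCs, and a link between the letters and the changes was not tested. Of all 33469 promoter windows of this length, 36.7% held the letters, as did 5 of the 10 windows of the glycolysis control genes, of which Hk1 has 2 and Fbp2 none. The median GC content was 56.8% in these 10 windows and 51.2% in all windows. The window of Pfkfb3 held the E-box CACGTG, which contains ACGTG on both strands and is present in 5.59% of all windows, while the windows of Pfkfb1, Pfkfb2 and Pfkfb4 held neither motif. A match describes the letters alone, and binding was not measured.

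The responses of isoforms were compared through the log2 ratio of their signals on each array. The ratio itself depends on the brightness of each probe, so that only its difference between groups is read. All 10 pairs of tested isoforms within a family were compared. The log2 ratio of Pfkl to Pfkm was -2.08 and -2.05 on the siNEG arrays and -0.94 and -0.93 on the siGPR17 arrays. This is a difference of 1.13 (standard error 0.012, 95% interval with 2 degrees of freedom 1.08 to 1.18), or 2.19-fold, which lay between 1.05 and 1.14 over the alternatives. The ratio of Pfkl to Pfkp was -4.24 and -4.22 in siNEG and -3.25 and -3.20 in siGPR17 OPCs, a difference of 1.003 (standard error 0.031, range 0.97 to 1.03 over the alternatives). The siNEG replicates differed less in these ratios than in the signals, where Pfkl, Pfkm and Pfkp were all higher on siNEG replicate 2 than on replicate 1, by 0.21, 0.19 and 0.19 on the log2 scale. The ratio of Pfkm to Pfkp differed by -0.13 (standard error 0.028), again without overlap, and by -0.030 (standard error 0.024) with normexp. The ratio of Hk1 to Hk2 was 1.63 and 1.38 in siNEG and 0.95 and 0.98 in siGPR17 OPCs. This is a difference of -0.54 (standard error 0.13), with a 95% interval of -1.09 to -0.00036 that nearly reached 0. Each of these 4 pairs had an exact two-sided permutation p of 0.333, the smallest that 4 arrays allow, and 0.417 after Benjamini-Hochberg adjustment over the 10 pairs. Scaling arrays by another constant leaves these ratios as they are.

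**Figure D2:**
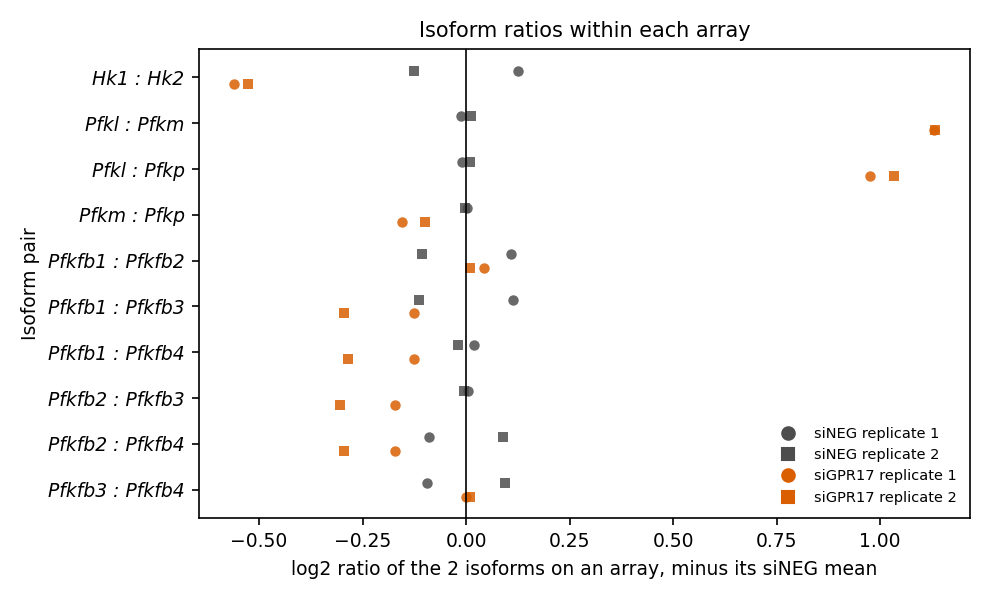
Log2 ratio of 2 isoforms of a family on each array minus the siNEG mean of that ratio (horizontal axis), for the 10 pairs (vertical axis), with 1 point per array. The siGPR17 points of Pfkl to Pfkm lie at 1.13 and those of Pfkl to Pfkp near 1.003, while Pfkfb1 to Pfkfb2 and Pfkfb3 to Pfkfb4 overlap between the groups.

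On their brightest probes, 0 of the 4 PFKFB genes passed an unadjusted p of 0.05 in limma. The log2 changes of these probes were 0.24 for both Pfkfb3 and Pfkfb4, 0.033 for Pfkfb1 and 0.0059 for Pfkfb2, while the means over tested probes were 0.26, 0.29 and 0.20 for Pfkfb3, Pfkfb4 and Pfkfb2. Pfkfb3, the isoform with the highest kinase over phosphatase activity, had signals of 2344 and 2413 in siNEG and of 2728 and 2906 in siGPR17 OPCs on the probe A_42_P826384. The groups did not overlap, and the log2 change was 0.24 (standard error 0.091, 95% interval -0.005 to 0.49, limma adjusted p = 0.305). Its dimmer probe A_64_P014542 gave 55.7 and 39.6 against 54.8 and 58.6, a log2 change of 0.27 with overlapping arrays, and it moved to 0.52 when siNEG replicate 1 was left out and to 0.026 when siNEG replicate 2 was.

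Pfkfb4, first known from testis and induced by hypoxia in many cells, had signals of 806 and 729 in siNEG and of 879.9 and 931 in siGPR17 OPCs. The log2 change was 0.24 (standard error 0.10, limma adjusted p = 0.339), again without overlap. Its dimmer probe A_44_P126027 gave 60.4 and 54.1 against 61.05 and 84.99, a log2 change of 0.33 (standard error 0.19) that was 0.57 without siGPR17 replicate 1 and 0.094 without siGPR17 replicate 2.

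Pfkfb2, the heart isoform, has 4 probes, and they differed from each other. The brightest, A_44_P1111820, had signals of 3003 and 3071 in siNEG and of 3095 and 3004 in siGPR17 OPCs. These values overlapped, and the log2 change of 0.0059 had a 95% interval of -0.23 to 0.24, well within a fold of 1.5. Of the pair of probes designed on the accession NM_080477, A_42_P820023 gave 156 and 123 against 148 and 143, and A_42_P711274 gave 67.97 and 58.4 against 74.4 and 98.1. Their log2 changes were 0.065 (standard error 0.15) and 0.44 (standard error 0.18, limma adjusted p = 0.328), and the groups were apart in the second of them alone. That second change was 0.64 without siGPR17 replicate 1 and 0.24 without siGPR17 replicate 2. The dimmest probe, A_44_P1159358, was well above background on 1 of the 2 siNEG arrays and gave a change of 0.30 with a standard error of 0.32. Pfkfb1, the liver and muscle isoform, had signals of 46.8 and 41.2 in siNEG and of 46.2 and 43.8 in siGPR17 OPCs, with a log2 change of 0.033 (standard error 0.11, 95% interval -0.26 to 0.33) and overlapping arrays.

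**Figure D3:**
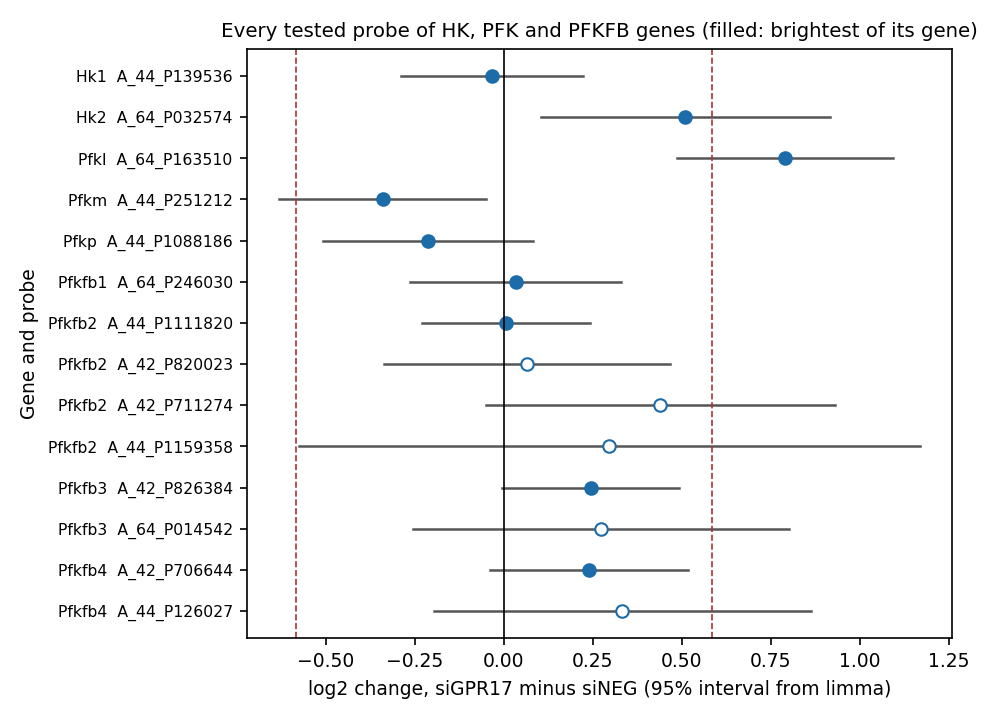
Log2 change between siGPR17 and siNEG OPCs (horizontal axis) for each of the 14 tested probes, with the 95% interval from limma as a line. Filled points are the probe that stands for its gene, open points its other probes, and dashed lines mark a fold of 1.5. The interval of Pfkl begins at 0.49, and the 4 probes of Pfkfb2 spread from 0.0059 to 0.44.

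Between PFKFB isoforms 4 of the 6 pairs had groups without overlap. The pairs share genes and are not separate results. Of single genes over the array, 28.1% were higher and 25.3% lower without overlap, and the share for gene ratios was not computed. The log2 ratio of Pfkfb3 to Pfkfb4 differed by 0.0051 between the groups (standard error 0.094, 95% interval with 2 degrees of freedom -0.40 to 0.41). That of Pfkfb1 to Pfkfb2 differed by 0.027 (standard error 0.11, interval -0.44 to 0.50), and both pairs had overlapping arrays and a permutation p of 1. The ratios of Pfkfb2 to Pfkfb3 and of Pfkfb2 to Pfkfb4 were lower in siGPR17 OPCs by values of -0.24 (standard error 0.067) and -0.23 (standard error 0.11), without overlap on the brightest probes. With the mean over the tested probes of each gene they were -0.057 (standard error 0.074) and -0.084 (standard error 0.080). The ratios of Pfkfb1 to Pfkfb3 and of Pfkfb1 to Pfkfb4 had differences of -0.21 (standard error 0.14) and -0.21 (standard error 0.082), also without overlap. The first of them was -0.098 without siNEG replicate 1 and the second -0.070 with normexp. For these 4 pairs the exact permutation p was 0.333.

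No array had Fbp2 well above background. Its probe A_64_P096459 had signals of 8.96 and 4.41 in siNEG and of 7.97 and 11.1 in siGPR17 OPCs, which gives no fold change.

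Over the 9 tested genes of the 10, 0 were called in limma, as were 0% of all 11656 genes (of all probes 0.00357%, which is 1 probe, were called), and 0 with the methods' t-test. With an unadjusted p under 0.05 in limma, Hk2 and Pfkl were higher (2 of 9, against 7.43% of all genes) and Pfkm was lower (1 of 9, against 8.73%), which makes 3 of 9 in either direction against 16.2%. A fold of 1.5 was reached by Pfkl alone among genes that were higher (2.43% of all genes) and by 0 that were lower (2.65% of all genes). A positive log2 change was found for 6 of the 9, beside 52% of all genes. No overlap between arrays of different groups was seen for 4 genes that were higher, Hk2, Pfkl, Pfkfb3 and Pfkfb4, where 28.1% of all genes were higher in this way. The same held for 2 that were lower, Pfkm and Pfkp, where 25.3% of all genes were. The median log2 change of the 9 genes was 0.033, beside 0.0099 over all genes.

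Most of the other glycolysis genes had positive changes. Of 17 other genes of glucose uptake, glycolysis and lactate handling, 14 had a positive log2 change and 3 a negative one, with a median of 0.39 (0.0099 over all genes). In limma 12 of the 17 were higher at an unadjusted p under 0.05 and 0 were lower, where 7.43% of all genes were higher and 8.73% lower. The adjusted p from limma lay between 0.209 and 0.970. In limma and with the methods' t-test 0 were called, as were 0% of all genes. With the trend and robust options 1 was called and with normexp 2, where 1.58% and 0.961% of all genes were. The largest changes were those of Slc16a3, a lactate exporter (0.67, standard error 0.14), Eno2, the neuronal enolase (0.66, standard error 0.086), Gpi, the isomerase between hexokinase and phosphofructokinase (0.57, standard error 0.11), and Pdk1, a kinase that inhibits pyruvate dehydrogenase (0.51, standard error 0.095). The Slc16a3 probe was dim, with signals of 29.5 and 28.3 in siNEG and of 41.1 and 51.5 in siGPR17 OPCs. Slc16a1, also a lactate transporter, was at 0.093 (standard error 0.091). Hk2 and Pfkl thus lay in the range of the 17 genes or above it. Pfkm, at -0.34, and Pfkp, at -0.21, lay below all 17, the lowest of which was at -0.18 (standard error 0.10). The distance between Pfkp (standard error 0.11) and that gene was smaller than either standard error.

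**Figure D4:**
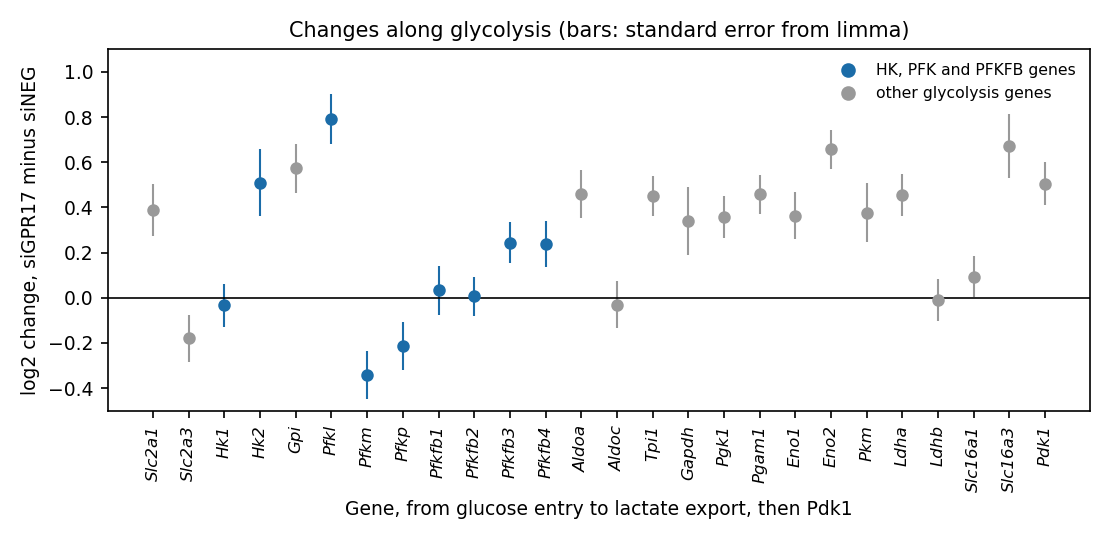
Log2 change between siGPR17 and siNEG OPCs (vertical axis) for genes in the order of the pathway (horizontal axis), with the standard error from limma as a bar. Blue points are the HK, PFK and PFKFB genes and grey points the 17 other genes, 14 of which lie above 0.

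Several of the glycolysis control genes are textbook targets of hypoxia-inducible factor, and 10 targets of it outside glycolysis were tested. Of these, 7 had a positive log2 change, 4 were higher at an unadjusted p under 0.05 in limma and 0 were lower, with a median of 0.15. Over all genes 52% were positive, 7.43% were higher and 8.73% lower at that p, and the median was 0.0099. None was called in limma (0 of 10) or with the methods' t-test, where 0% of all genes were. With the trend and robust options and with normexp 1 was called each, where 1.58% and 0.961% of all genes were.

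The cultures expressed the markers of their label. All 6 precursor and all 7 oligodendrocyte markers were well above background on every array. The summed signal of the precursor markers was 211100 to 251300 in siNEG and 205100 to 207300 in siGPR17 OPCs, and that of the oligodendrocyte markers 349900 to 381800 and 405100 to 416000. Olig1, Olig2 and Sox10, which the whole lineage expresses, make up most of the precursor sum, so that it says little about the precursor stage. The log2 changes of Cspg4, Pdgfra and Ptprz1 were -0.48 (standard error 0.095), -0.23 (standard error 0.091) and -0.15 (standard error 0.089). All 7 astrocyte markers were also well above background on every array, with summed signals of 9843 to 10730.0 in siNEG and of 9402 to 9413 in siGPR17 OPCs. Slc1a3 and S100b make up most of that sum. Single astrocyte markers went both ways, with log2 changes of -1.35 for Aqp4, -0.61 for Gfap and -0.37 for Slc1a3 and of 0.50 for S100b. In limma 0 of these 7 were called, and 2 were with the trend and robust options, where 1.58% of all tested genes were. Under those options 1 oligodendrocyte marker was called, Mog, which was lower, with a log2 change of -0.67 (standard error 0.12 in limma). Of the 7 oligodendrocyte markers 4 had a positive change. The markers given singly were named after their values were seen. For 8 neuron markers, 7 of them well above background on every array, the sums were 6871 to 8179 and 6423 to 6683. All 8 had a negative log2 change, and 4 were lower at an unadjusted p under 0.05 in limma, against 8.73% of all genes. None was called in limma. Of 8 microglia markers 7 were detected on every array, with sums of 2335 to 3613 and 2389 to 2875, and Csf1r was at background. Negative changes were found for 6 of the 7 tested microglia, all 6 precursor and 3 of the 7 oligodendrocyte markers, while 52% of all genes were positive. Of the 5 endothelial markers 3 were well above background on no array, Cldn5, Pecam1 and Tie1, and so were 4 of the 6 fibroblast and mural markers, Dcn, Lum, Pdgfrb and Rgs5. The summed signals were 84.81 to 104.6 and 107.3 to 115.7 for the endothelial markers and 304.5 to 409.9 and 410.4 to 412.1 for the fibroblast and mural markers. In these bulk samples fewer cells of a type and less RNA per cell cannot be told apart, and the part of cell composition in the changes of Hk2, Pfkl, Pfkm and Pfkp was not tested.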

How the data were processed

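The authors deposited spot intensities of each array from Agilent Feature Extraction 10.7.3.1, background-corrected and not normalized between arrays. Outlier-flagged and control spots were left out, log2 intensities were taken relative to the 75th percentile of each array, and spots of 1 probe were averaged. Probes were named through their RefSeq accessions with a gene table of the assembly GRCr8, which matched 21093 probes; the array design names another build, so no probe coordinates are given. Accessions that the table does not list, Ensembl transcripts among them, carry no name here. The fit was limma 3.58.1 in R 4.3.3 with the treatment as the only term, two-sided, with Benjamini-Hochberg adjustment over 28016 probes. The code was tested on simulated data. The genes and lists were chosen with earlier results of these data known. The methods state the thresholds and no test for the arrays. All 10 genes were named, and of the other glycolysis genes the 4 with the largest change and Slc16a1. The methods' t-test is the unpaired test that the general statistics section names. Alternatives were normexp with an offset of 50 on the spot and background medians, since the files hold no mean signal, quantile normalization, scaling on the median of bright probes or on 9 spike-in probes, no filter and a filter on 4 arrays, the trend and robust options, the replicate block, leaving out each array and the mean over a gene's probes. A list of related genes of the same steps is not reported here.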

Additional observations from a re-analysis of the deposited data

How the results depend on the processing

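Of 184 values of the changes of the 14 tested probes under the alternatives, 176 kept the sign reported. So did 96 of 100 values of the isoform differences. Part of both totals could not turn. The t-test, the replicate block, the other filters and the robust trend fit leave the log2 change of a probe as it was. Both other scalings and the replicate block do so for isoform differences, as does the probe mean where each gene has 1 tested probe. These totals therefore overstate how far the signs were tested. Pfkl, Hk2, Pfkm and Pfkp kept their direction under every alternative. The sign turned for Hk1 under spike-in scaling (0.095) and, with an array left out, for Hk1 (range -0.084 to 0.016), Pfkfb1 (-0.059 to 0.12) and the Pfkfb2 probes A_44_P1111820 (-0.016 to 0.027), A_42_P820023 (-0.11 to 0.24) and A_44_P1159358 (-0.041 to 0.63). The difference between Pfkfb1 and Pfkfb2 was -0.17 and that between Pfkfb3 and Pfkfb4 was -0.028 with the mean over a gene's probes, and with an array left out they ranged from -0.081 to 0.13 and from -0.088 to 0.10. Pfkl was the 1 gene of the 10 called with normexp, where 242 probes and 112 genes were called in all, and with the trend and robust options, where 420 probes and 184 genes were. The cause was not tested. The 1 probe called in limma was lost (0 called) with spike-in scaling, no filter, a filter on all arrays, the methods' t-test, the replicate block and each array left out (0 to 0). Of the 10 genes, those higher at an unadjusted p under 0.05 numbered 4 with the trend and robust options and 1 to 3 with an array left out. Those lower numbered 2 with normexp, 0 with spike-in scaling, the methods' t-test or the replicate block, and 0 to 2 with an array left out. The labels give both groups the replicate numbers 1 and 2, which on the slide are also its rows. The deviations of same-numbered samples from their group means correlated with r = -0.065 across probes, so the samples share a number and were not taken as pairs. With the replicate block the adjusted p of Pfkl was 0.390 and that of Hk2 0.403, and 0 of the 10 genes were called. A block for slide or scan was not run, since all arrays share both. Where leaving out an array left 1 sample in a group, that sample was assumed to vary like the others. Signals near background limit Fbp2 and the dimmest Pfkfb2 probe.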
